A study of Homo sapiens with 12 samples.

Results

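The genes described here encode the proteins of the mitochondrial ribosome. They were taken as every protein-coding row whose symbol is MRPL or MRPS followed by digits, which gave 78 of the 58735 genes in the deposited tables, 49 with an MRPL symbol and 29 with an MRPS symbol. They were followed in polyadenylated RNA from 2 human cell lines of anaplastic thyroid carcinoma, a thyroid cancer that has lost its differentiation. KHM-5M is labelled BRAF V600E, which leaves the BRAF kinase switched on, and was grown in RPMI-1640, while TTA-1 is labelled BRAF WT and was grown in DMEM. The groups were KHM-5M with 1 µM GDC-0994, KHM-5M with its vehicle DMSO, TTA-1 with 1 µM GDC-0994 and TTA-1 with DMSO, all for 24 h, with 3 libraries per group and 12 in all. GDC-0994 (ravoxertinib) inhibits the ERK kinases, the last step of the RAS-RAF-MEK-ERK cascade. Line, BRAF genotype and medium cannot be told apart in comparisons between the lines. The labels do not say that libraries of a group came from separate cultures, so p-values measure only the spread between these libraries.

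The mitochondrial ribosome, or mitoribosome, sits in the mitochondrial matrix and translates the few mRNAs of mitochondrial DNA, all of which encode subunits of the respiratory chain and ATP synthase. Its rRNAs are encoded in mitochondrial DNA, whereas every one of its proteins is encoded in the nucleus, made in the cytosol and imported. The large subunit forms peptide bonds and carries the exit tunnel, and the small subunit binds and decodes the mRNA. Many of its proteins descend from bacterial ribosomal proteins, and others were added in mitochondria.

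By the known structure, 51 of the genes encode large-subunit proteins, including MRPS30 and MRPS18A, which lie in the large subunit despite their symbols. Another 26 encode small-subunit proteins. MRPS36 belongs to neither, since its protein has been assigned to the oxoglutarate dehydrogenase complex. Proteins with a bacterial homologue account for 30 of the large-subunit and 16 of the small-subunit genes, and 21 and 10 are specific to mitochondria. The genes lie on 21 chromosomes. All 78 passed the filter on low counts, so none went untested.

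Total counts per library ranged from 14952970 to 18389915. Markers of the labelled tumour type were mixed. KRT8, KRT18 and VIM were high in all groups, with group means from 148 to 391 FPKM, and TG, TSHR and SLC5A5 stayed at or below 0.141 FPKM in every library. EPCAM (1.33 to 2.27 FPKM) and CDH1 (0.00303 to 0.533 FPKM), also epithelial, were low. FN1, a mesenchymal marker, averaged 319.97 and 222 FPKM in KHM-5M GDC-0994 and KHM-5M DMSO, and 0.135 and 0.0969 FPKM in TTA-1 GDC-0994 and TTA-1 DMSO. The thyroid factor PAX8 averaged 16.3 and 28.03 FPKM in KHM-5M GDC-0994 and KHM-5M DMSO, and 0.478 and 0.471 FPKM in TTA-1 GDC-0994 and TTA-1 DMSO. FPKM scale the reads by gene length and by a library size that is not the library total, and serve below for levels. Libraries stood apart within 2 groups. Across 11873 genes, the ratio of a library to the others of its group correlated with GC content at 0.52 in KHM-5M GDC-0994 replicate 1 and -0.48 in replicate 3, and at 0.61 in TTA-1 DMSO replicate 1 and -0.61 in replicate 2. Among the 39 mitoribosomal genes with the higher GC content (at or above 47.7%), 38 had a higher FPKM in TTA-1 DMSO replicate 1 than in replicate 2, against 16 of the other 39.

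Promoters of some of these genes hold short sequences that nuclear regulators of mitochondrial genes are known to bind. Promoters of 69 of the 78 genes were found in RefSeq (GRCh38.p14, 250 bases before to 50 after each listed start, both strands searched). MRPL10, MRPL13, MRPL15, MRPL2, MRPL21, MRPL23, MRPL35, MRPS28 and MRPS36 were not matched. AAGATGGC, the core of the YY1 site, was in a promoter of 21 of 69 genes (30.4%), against 6.31% of the 10452 tested protein-coding genes with a promoter and 2.89% of all 35116 promoters. CCGGAAG, the core of ETS sites such as that of GABP, was in 30 of 69 (43.5%), against 21.7% of the tested coding genes and 10.3% of all promoters. The NRF1 core CGCATGCG was in 3 of 69 (4.35%), against 4.32% of tested coding genes and 2.02% of all promoters, and the E box CACGTG, a MYC site, in 9 of 69 (13.04%), against 12.6% and 7.26%. The AAGATGGC matches were placed alike: in 16 of the 69 genes (23.2%), the motif lay on the gene's own strand with its first base 7 to 36 bases after the start, an arrangement found in 3.53% of the tested coding genes. CCGGAAG and AAGATGGC were both in promoters of 8 genes (11.6%), against 1.66% of the tested coding genes. The end of CCGGAAG has the letters with which AAGATGGC begins, but in none of these 8 genes did the matches overlap. A match describes the sequence only.

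**Figure D1:**
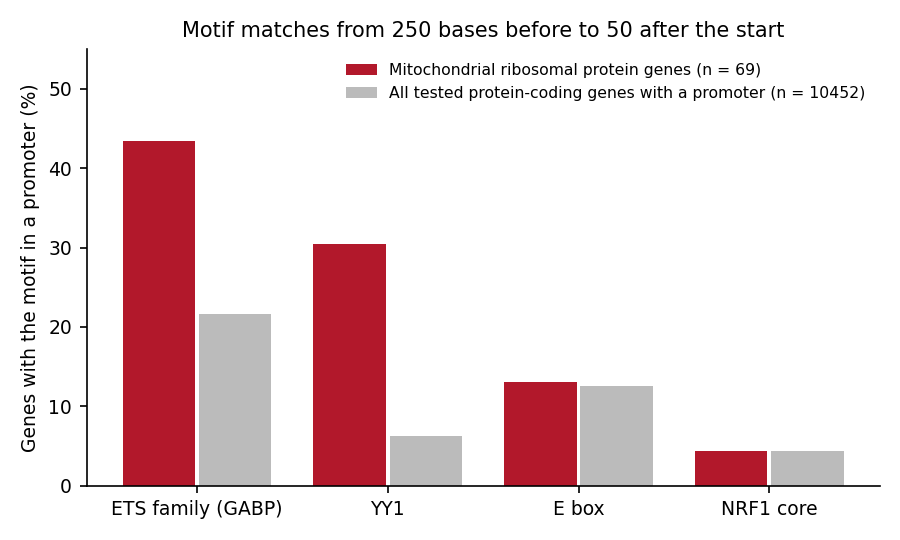
Share of genes (%) with each motif in a promoter, for the 69 mitochondrial ribosomal protein genes with a promoter (red) and all 10452 tested protein-coding genes with a promoter (grey). The ETS and YY1 motifs were in 43.5% and 30.4% of the mitoribosomal genes, and the E box and NRF1 core were at about the share of all coding genes.

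Promoters of MRPS26, MRPL17 and MRPL46, which fell in treated KHM-5M cells, are printed 5′ to 3′ on the gene's strand, because each holds another of these motifs, shown in capitals. MRPS26 (chr20:3045802-3046101, plus strand) holds the ETS motif on the opposite strand with its first base at -37 from its start, MRPL17 (chr11:6683291-6683590, minus strand) holds the palindromic NRF1 core with first bases at -80 and -42, and MRPL46 (chr15:88467339-88467638, minus strand) holds the YY1 motif from base 9 after its start.
MRPS26: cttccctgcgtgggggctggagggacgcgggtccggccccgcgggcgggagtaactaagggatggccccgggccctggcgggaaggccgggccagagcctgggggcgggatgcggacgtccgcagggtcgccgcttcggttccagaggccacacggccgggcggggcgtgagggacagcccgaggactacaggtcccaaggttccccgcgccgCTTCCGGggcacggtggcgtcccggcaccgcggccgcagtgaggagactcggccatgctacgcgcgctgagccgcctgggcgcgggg
MRPL17: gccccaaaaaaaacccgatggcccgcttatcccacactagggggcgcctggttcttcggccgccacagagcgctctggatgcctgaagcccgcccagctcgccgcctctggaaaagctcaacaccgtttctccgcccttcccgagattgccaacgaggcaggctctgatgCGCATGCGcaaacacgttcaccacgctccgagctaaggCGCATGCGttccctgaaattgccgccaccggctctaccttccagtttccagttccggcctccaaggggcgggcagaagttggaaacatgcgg
MRPL46: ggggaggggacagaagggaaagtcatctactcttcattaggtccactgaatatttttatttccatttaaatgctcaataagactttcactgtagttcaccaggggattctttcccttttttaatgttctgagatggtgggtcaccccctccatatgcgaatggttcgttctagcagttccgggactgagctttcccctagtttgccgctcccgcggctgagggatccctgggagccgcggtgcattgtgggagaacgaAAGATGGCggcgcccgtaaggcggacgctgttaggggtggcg

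Levels of the members spanned more than 2 orders of magnitude. The mean over all 12 libraries had a median of 19.9 FPKM over the 78 genes. It ranged from 0.480 to 93.0 FPKM (median 20.1) for the large subunit and from 0.279 to 76.6 FPKM (median 16.4) for the small subunit. The highest were MRPL15 (93.0 FPKM), MRPL3 (78.0), MRPL37 (77.3), MRPS34 (76.6) and MRPL51 (69.0). MRPL15 and MRPL3 are homologues of bacterial proteins, and the other 3 are specific to mitochondria. The levels of MRPL3, MRPL37 and MRPS34 differed by less than the SD of MRPL3 in TTA-1 DMSO, 10.9 FPKM.

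The lowest members were MRPS24 (0.279 FPKM), MRPL38 (0.480), MRPL46 (0.999), MRPL53 (1.47) and MRPS18C (3.10). Each shares exonic bases with another annotated gene: 23.2% of MRPS24 with the readthrough gene URGCP-MRPS24, 41.1% of MRPL38, 11.3% of MRPL46, 45.2% of MRPL53 with CCDC142 and 40.2% of MRPS18C with ABRAXAS1. The labels describe no step that marks the strand, and strand would not separate genes on the same strand, such as a readthrough gene. Reads in shared bases therefore cannot be assigned with certainty. In all, 41 of the 78 genes overlap exons of another gene, 1 of them, MRPL12, over more than 50% of its length. The annotation also holds 75 pseudogene rows for 34 members, but their counts exceeded 1% of the member's own in only 2 genes, MRPL45 and MRPS31. Values of these genes are uncertain, and these shares do not measure by how much.

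Across the groups, the ratio of the highest to the lowest group mean of a member had a median of 1.75, and it reached 2 or more in 27 of 78. MRPS35, a small-subunit protein specific to mitochondria, was the steadiest, with means of 34.2 ± 1.41 FPKM in KHM-5M GDC-0994, 34.7 ± 1.05 in KHM-5M DMSO, 34.3 ± 0.148 in TTA-1 GDC-0994 and 34.8 ± 4.28 in TTA-1 DMSO (SD, n = 3 each). The lowest group mean was that of KHM-5M GDC-0994 in 50 of the 78 genes, 32 of 51 large and 17 of 26 small. TTA-1 GDC-0994 was lowest in 18, KHM-5M DMSO in 7 and TTA-1 DMSO in 3. Neither the ratio nor the lowest group was counted over all genes, so these counts have no background beside them.

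Summed over each subunit, levels were lowest in treated KHM-5M cells. The 51 large-subunit genes together had 1123, 1009 and 970.5 FPKM in KHM-5M GDC-0994, against 1349, 1312 and 1290.1 FPKM in KHM-5M DMSO. The 26 small-subunit genes had 541, 517 and 472 FPKM in KHM-5M GDC-0994, against 663, 646 and 634 FPKM in KHM-5M DMSO. Treated and control libraries did not overlap for either subunit. In TTA-1 the large-subunit sums were 1428, 1483 and 1481 FPKM with GDC-0994, against 1536, 1407 and 1419 FPKM with DMSO, and the small-subunit sums were 602, 619 and 611 FPKM with GDC-0994, against 707, 632 and 637 FPKM with DMSO. The TTA-1 groups overlapped for the large subunit and did not overlap for the small subunit by summed FPKM. By share of all counts the small-subunit genes did overlap in TTA-1. They took 0.166, 0.170 and 0.171% with GDC-0994, against 0.186, 0.169 and 0.174% with DMSO. As a share of all counts, the 78 genes took 0.374 ± 0.0136% in KHM-5M GDC-0994 and 0.455 ± 0.00645% in KHM-5M DMSO, and 0.497 ± 0.00807% in TTA-1 GDC-0994 and 0.5002 ± 0.0212% in TTA-1 DMSO (SD, n = 3 each). The median over the genes of a subunit ordered the groups differently for the small subunit. It was highest in KHM-5M GDC-0994, at 16.7 ± 0.445 FPKM. It was 14.6 ± 0.533 FPKM in KHM-5M DMSO, 14.96 ± 0.817 in TTA-1 GDC-0994 and 14.8 ± 0.169 in TTA-1 DMSO. The large-subunit median was lowest in KHM-5M GDC-0994, at 15.8 ± 1.35 FPKM, against 21.2 ± 1.25 in KHM-5M DMSO. The ratio of the large to the small median was 0.945 ± 0.0579 and 1.45 ± 0.0687 in these groups. The small-subunit median lay between MRPS14 and MRPS9 in both of them. MRPS14 averaged 16.2 FPKM in KHM-5M GDC-0994 and 12.3 FPKM in KHM-5M DMSO, and MRPS9 averaged 17.2 and 16.9 FPKM. Of the 26 small-subunit genes, 22 had a negative log2 fold change in KHM-5M and 4 a positive one. The higher median therefore does not describe the subunit as a set. In bulk samples, fewer cells of a kind and less RNA per cell cannot be told apart.

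**Figure D2:**
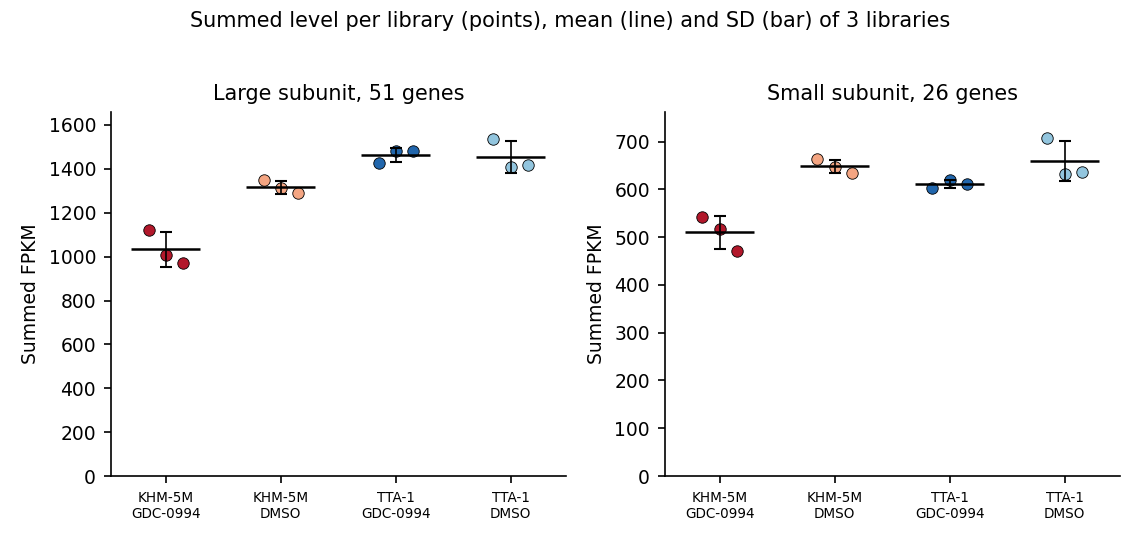
Summed FPKM per library of the 51 large-subunit genes (left panel) and 26 small-subunit genes (right panel) in the 4 groups, with points for libraries, lines for means and bars for the SD of 3 libraries. KHM-5M GDC-0994 libraries lay lowest for both subunits, at 970.5 to 1123 and 472 to 541 FPKM.

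In KHM-5M, treated libraries were set against their DMSO controls to see how these transcripts stand when ERK is inhibited in a BRAF-mutant line. More than 50% of them fell, by modest amounts. A gene is called here, and said to rise or fall, at an adjusted p below 0.05 in edgeR's quasi-likelihood test with Benjamini-Hochberg adjustment over 16218 genes. Of the 78 members, 44 fell (56.4%), where 25.1% of all genes tested fell, and 2 rose, where 24.6% of all genes rose. The other 32 were not called. The median log2 fold change over the 78 was -0.33, against 0.02 over all genes tested, and 69 of 78 values were negative. Without KHM-5M GDC-0994 replicate 3 the number that fell was 32, the lowest over the libraries left out in turn, with a median of -0.25. In that fit 3484 of 16606 genes fell. Without both KHM-5M GDC-0994 libraries that stood apart, replicates 1 and 3, the median was -0.31. With the length and GC trend removed 44 members fell, where 4520 of 16218 genes fell. Across the 78 members, the effect had a Spearman correlation of -0.35 with GC content.

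Genes of both subunits fell. In the large subunit 30 of 51 genes fell, with a median of -0.35, and in the small subunit 14 of 26 fell and 2 rose, with a median of -0.22. Of the 46 genes with a bacterial homologue 29 fell, with a median of -0.34, and of the 31 specific to mitochondria 15 fell, with a median of -0.23. No test of these groups against each other was made.

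MRPS2, a small-subunit homologue of bacterial S2 (ENSG00000122140, chromosome 9, 135499984 to 135504673 on GRCh38), fell most. It had 22.1, 21.95 and 20.6 FPKM in KHM-5M GDC-0994, against 41.1, 41.5 and 38.2 FPKM in KHM-5M DMSO. Every treated library lay far below every control library, and the log2 fold change was -0.93 ± 0.09 (SE; edgeR, adjusted p = 1.40e-07). MRPS26, a small-subunit protein specific to mitochondria (chromosome 20, 3045945 to 3048254), had 37.0, 34.2 and 26.3 FPKM in KHM-5M GDC-0994, against 59.0, 57.5 and 54.0 FPKM in KHM-5M DMSO. The groups did not overlap, with a log2 fold change of -0.83 ± 0.13.

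In the large subunit the strongest falls were those of MRPL12, MRPL18, MRPL17 and MRPL46. MRPL18, homologue of a bacterial protein that binds 5S rRNA (chromosome 6, 159789812 to 159798436), had 21.9, 20.2 and 18.5 FPKM in KHM-5M GDC-0994, against 34.2, 37.5 and 35.3 FPKM in KHM-5M DMSO, a log2 fold change of -0.85 ± 0.08. MRPL17, homologue of bacterial L17 (chromosome 11, 6680782 to 6683401), had 19.4, 15.3 and 15.3 FPKM in KHM-5M GDC-0994, against 32.995, 25.6 and 28.6 FPKM in KHM-5M DMSO, a log2 fold change of -0.83 ± 0.13. Neither gene's treated libraries reached its control libraries. MRPL46, specific to mitochondria and close to the bottom of the levels (chromosome 15, 88459476 to 88467419), had 0.482, 0.495 and 0.702 FPKM in KHM-5M GDC-0994, against 0.853, 0.911 and 0.970 FPKM in KHM-5M DMSO, again without overlap (-0.74 ± 0.17).

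MRPL12 forms the stalk that recruits translation factors, and its protein is also known to bind the mitochondrial RNA polymerase. It had 13.1, 9.08 and 11.4 FPKM in KHM-5M GDC-0994, against 22.9, 18.7 and 18.6 FPKM in KHM-5M DMSO, without overlap. Its fold change was less certain than the others, at -0.87 ± 0.26 (edgeR, adjusted p = 0.0102). The call was lost without KHM-5M GDC-0994 replicate 2 or KHM-5M DMSO replicate 1. MRPL12 shares 68.2% of its exonic bases with the gene AC139530.2 on the same strand, for which no read was counted in any library. That absence does not show whether reads in the shared bases were counted for MRPL12, so its level is uncertain.

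The other genes that fell ranged in size from MRPL39 (-0.70 ± 0.12), a large-subunit protein specific to mitochondria, to MRPS7 (-0.21 ± 0.07), homologue of bacterial S7. They included the most abundant members. MRPL15, homologue of bacterial L15, averaged 64.4 ± 4.13 FPKM in KHM-5M GDC-0994 and 95.3 ± 7.30 FPKM in KHM-5M DMSO (SD, n = 3 each; -0.59 ± 0.08 log2). MRPS34, specific to mitochondria, averaged 75.2 ± 6.64 FPKM in KHM-5M GDC-0994 and 105.3 ± 5.10 FPKM in KHM-5M DMSO (-0.51 ± 0.12), a call lost without both KHM-5M GDC-0994 replicates 1 and 3. MRPL58, which kept the peptidyl-tRNA hydrolase activity of a release factor, fell too (-0.54 ± 0.10; chosen after its values were seen). MRPS30 (0.02 ± 0.09), MRPS18A (-0.11 ± 0.11) and MRPS36 (-0.04 ± 0.11) were not called.

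MRPS14 and MRPS24 were the 2 members that rose in KHM-5M. MRPS14, homologue of bacterial S14 (chromosome 1, 175010789 to 175023425), had 16.5, 16.5 and 15.6 FPKM in KHM-5M GDC-0994, against 12.5, 12.2 and 12.3 FPKM in KHM-5M DMSO, a log2 fold change of 0.37 ± 0.08 (edgeR, adjusted p = 0.00125). All treated libraries lay above all controls. MRPS24, homologue of bacterial S3, is the member with the fewest reads, 148 in all 12 libraries. It had 32, 25 and 21 counts in KHM-5M GDC-0994, against 4, 7 and 6 counts in KHM-5M DMSO. The groups did not overlap, and the log2 fold change was 2.14 ± 0.38 on counts this low. A stricter filter on counts left the gene out. MRPS24 also shares 23.2% of its exonic bases with the readthrough gene URGCP-MRPS24, and what that overlap does to its counts was not tested.

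**Figure D3:**
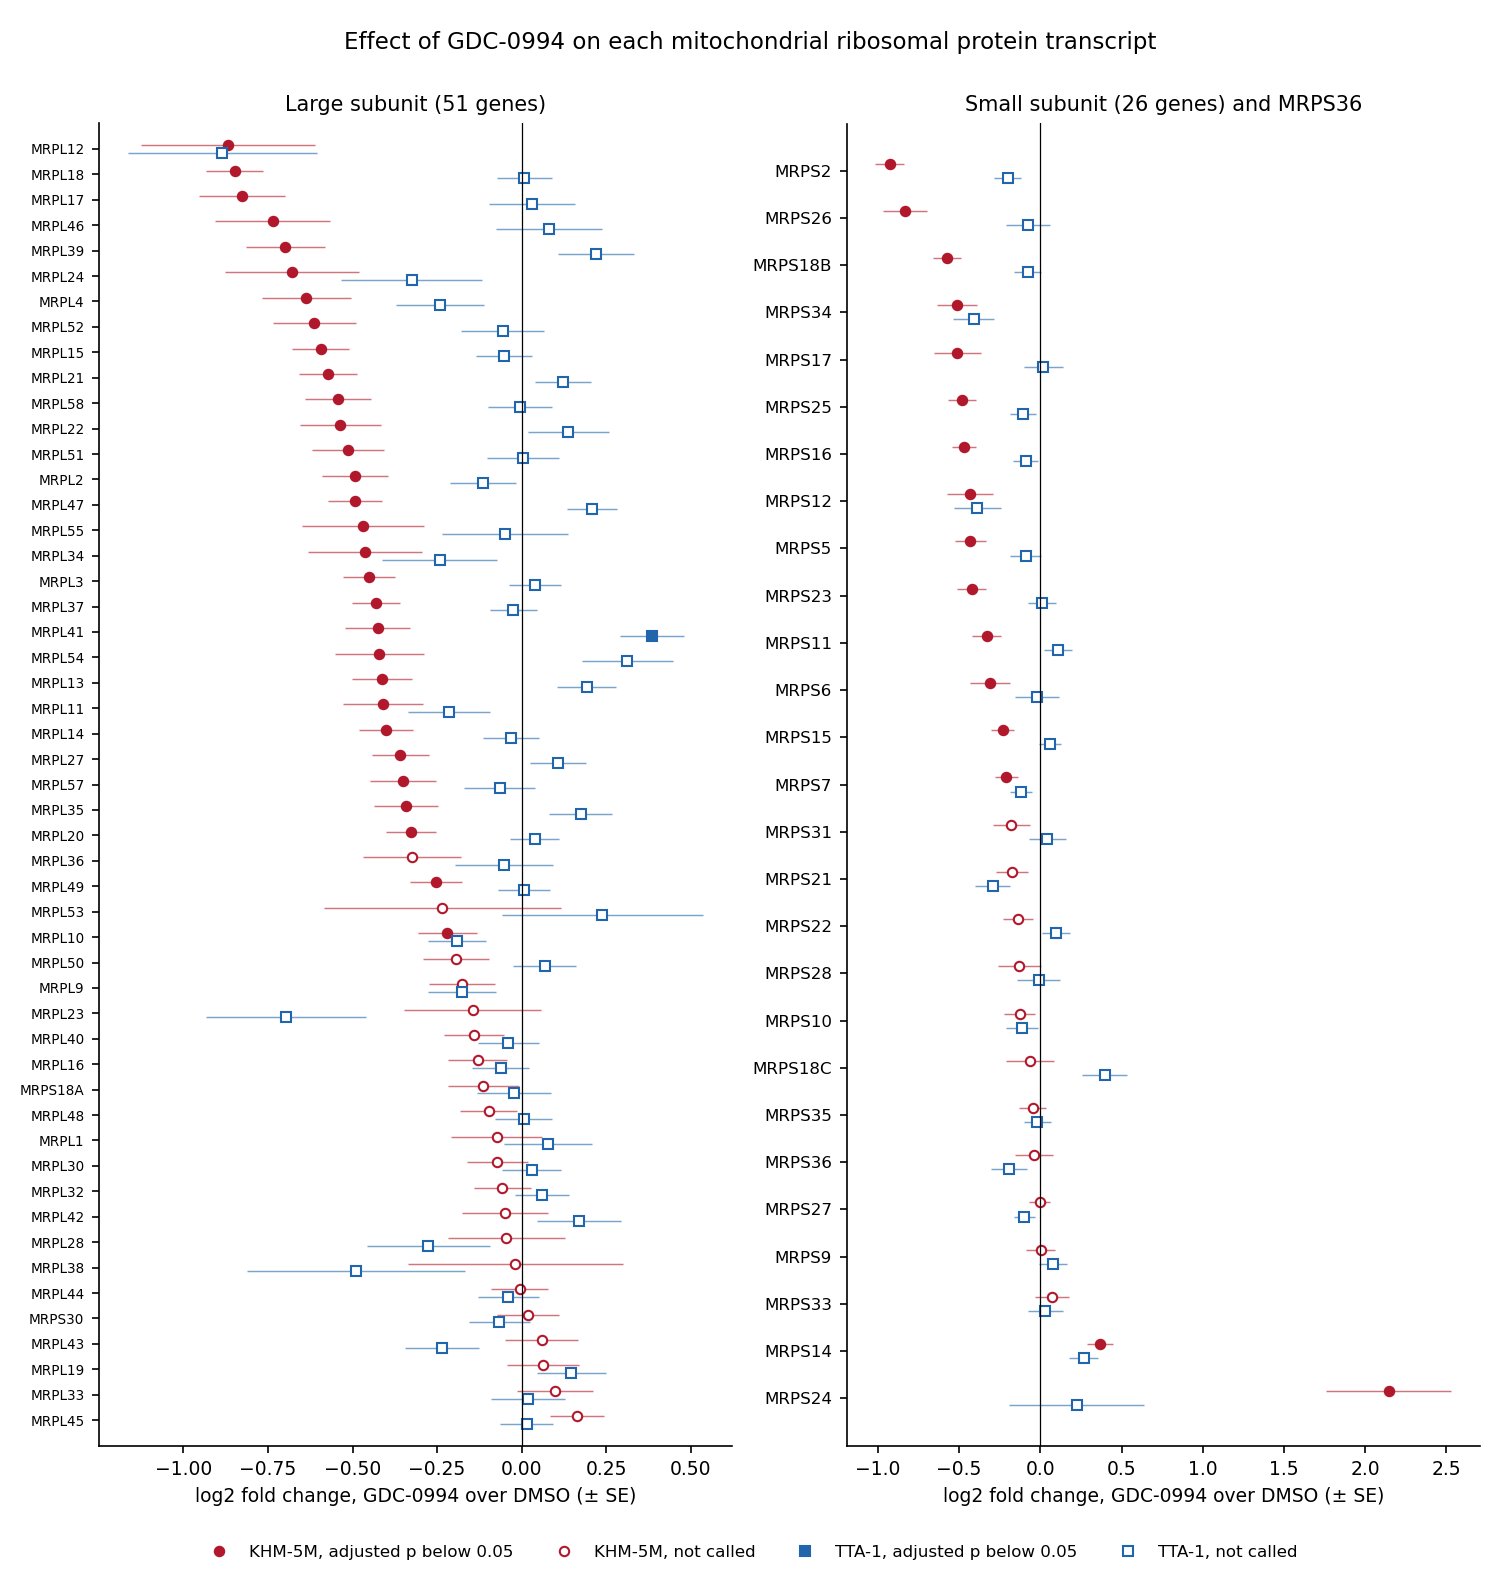
Log2 fold change (± SE) of GDC-0994 over DMSO for each member, large subunit in the left panel and small subunit with MRPS36 in the right panel, with the horizontal scales differing between panels. Circles are KHM-5M and squares TTA-1, filled where the adjusted p was below 0.05: 46 circles are filled (44 fallen, 2 risen), and 1 square, MRPL41.

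The same comparison in TTA-1 asked about a line without the BRAF change, where few genes of any kind were called. Of the 78 members 1 rose, where 1.18% of all genes rose, and 0 fell, where 2.24% of all genes fell (edgeR). In the same fit 14 members had an unadjusted p under 0.05, 6 up and 8 down. The DESeq2 Wald test called 1 rise and 2 falls, and limma on log2(FPKM + 1) called 1 rise and 0 falls. The median log2 fold change was -0.01, against 0.01 over all genes tested, with 37 values positive and 41 negative. Of the libraries left out in turn, TTA-1 DMSO replicate 2, which stood apart, moved the count most. Without TTA-1 DMSO replicate 1, which stood apart too, the count stayed the same. There 1 member rose and 0 fell, where 121 of 16676 genes rose and 228 fell. Without TTA-1 DMSO replicate 2, 13 members fell and 3 rose, where 1726 of 16678 genes fell and 894 rose. Without both TTA-1 DMSO replicates 1 and 2, the median log2 fold change of the members was 0.004. Across the 78 members, which share these libraries, the effect in TTA-1 had a Spearman correlation of -0.51 with GC content. The part of GC content in the result was not tested beyond these alternatives and the one that removes its trend.

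MRPL41, a large-subunit protein specific to mitochondria that is also known to bind BCL2, was the member that rose in TTA-1. It had 68.2, 83.3 and 85.4 FPKM in TTA-1 GDC-0994, against 63.7, 63.4 and 54.7 FPKM in TTA-1 DMSO, a log2 fold change of 0.39 ± 0.09 (edgeR, adjusted p = 0.0322). The groups did not overlap, but the call was lost without TTA-1 GDC-0994 replicate 2 or 3 or TTA-1 DMSO replicate 3. In KHM-5M it went the other way, with 50.1, 42.6 and 42.9 FPKM in KHM-5M GDC-0994, against 59.8, 57.7 and 61.3 FPKM in KHM-5M DMSO (-0.43 ± 0.10). MRPL12 had 8.26, 7.52 and 5.52 FPKM in TTA-1 GDC-0994, against 20.3, 6.98 and 12.2 FPKM in TTA-1 DMSO. With the high value in replicate 1 and an overlap through replicate 2, its log2 fold change of -0.88 ± 0.28 was not called (edgeR, adjusted p = 0.102).

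**Figure D4:**
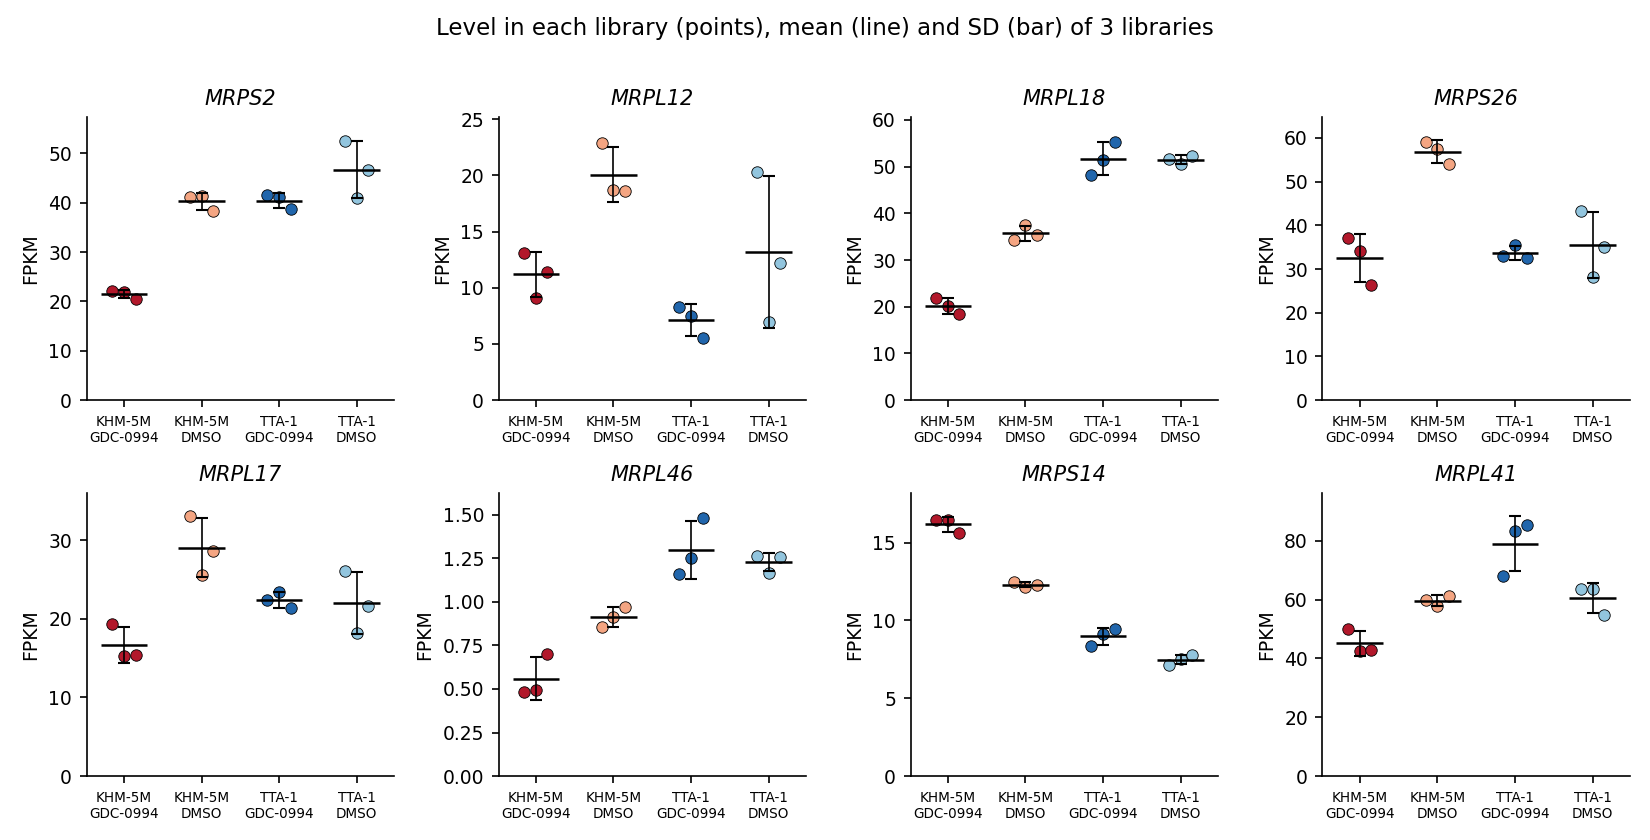
FPKM in each library of the 6 members with the largest falls in KHM-5M and of MRPS14 and MRPL41, in the 4 groups, with the mean and SD of 3 libraries. The KHM-5M GDC-0994 libraries of MRPS2 lay at 20.6 to 22.1 FPKM, below all other libraries of the gene, and MRPL12 spread from 6.98 to 20.3 FPKM within TTA-1 DMSO.

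Whether the 2 lines differed in their response was tested as the difference of the GDC-0994 effects, KHM-5M minus TTA-1. It was negative for 29 of the 78 members, where 15.6% of all genes had a negative difference, and positive for 1, where 12.3% had a positive one. The median difference was -0.27 on the log2 scale, against 0.02 over all genes. Without both KHM-5M GDC-0994 replicates 1 and 3, the median difference was -0.25. The 29 comprised 20 of 51 large-subunit and 9 of 26 small-subunit genes. The number is 19 when KHM-5M GDC-0994 replicate 3, KHM-5M DMSO replicate 1 or 2, TTA-1 GDC-0994 replicate 3 or TTA-1 DMSO replicate 3 is left out. Over all genes, 1992 to 2147 had a negative difference in these fits, against 2532 in the reported fit. Of the 44 members that fell in KHM-5M, 43 were not called in TTA-1 and 1, MRPL41, rose there, in a comparison in which 1.18% of all genes rose and 2.24% fell.

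The largest negative differences were those of MRPL39 (-0.92 ± 0.16), MRPL17 (-0.86 ± 0.18), MRPL18 (-0.86 ± 0.12) and MRPL46 (-0.82 ± 0.23). MRPL39 had 14.2, 15.1 and 11.5 FPKM in KHM-5M GDC-0994, against 22.5, 22.4 and 20.1 FPKM in KHM-5M DMSO. In TTA-1 it had 30.5, 32.5 and 37.2 FPKM with GDC-0994, against 26.1, 32.5 and 27.7 FPKM with DMSO. The KHM-5M groups were apart, and the TTA-1 groups overlapped. MRPL18 had 48.3, 51.5 and 55.3 FPKM in TTA-1 GDC-0994, against 51.7, 50.5 and 52.4 FPKM in TTA-1 DMSO, with treated libraries on both sides of the controls. The single positive difference was that of MRPS24 (1.92 ± 0.58), with its low counts. Its call was lost without KHM-5M DMSO replicate 1 or TTA-1 DMSO replicate 3, and that of MRPL46 without TTA-1 GDC-0994 replicate 3. Without TTA-1 DMSO replicate 2, 4 members had a positive difference, where 2636 of 16678 genes had one. Across the 78 genes, measured with separate controls in each line, the effects in KHM-5M and in TTA-1 had a Pearson correlation of 0.21 and a Spearman correlation of 0.13, given as a description over genes that are not independent.

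The genes around the mitoribosome, listed by function, were counted in KHM-5M beside the 25.1% of all genes that fell and the 24.6% that rose. Shares near these say nothing particular of a list. Of 5 mitoribosomal proteins with another symbol 4 fell (median -0.33), among them AURKAIP1 (-0.70 ± 0.18) and GADD45GIP1 (-0.41 ± 0.10). Of 22 assembly and rRNA modification factors 11 fell and 3 rose (median -0.32). MRM2, an rRNA methyltransferase (-0.73 ± 0.09), and DHX30, an RNA helicase (-0.37 ± 0.07), fell, and YBEY (0.74 ± 0.12) and MTERF4 (0.40 ± 0.09) rose. Of 13 translation factors 3 fell and 2 rose (median -0.02), with a fall of TUFM, the mitochondrial elongation factor Tu (-0.36 ± 0.10), and a rise of MTIF3, an initiation factor (0.60 ± 0.11). Of 20 genes of aminoacyl-tRNA synthesis 6 fell and 2 rose (median -0.08), including a fall of MARS2, the methionyl-tRNA synthetase (-0.86 ± 0.09).

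Of 9 nuclear regulators of mitochondrial genes 5 fell and 2 rose in KHM-5M (median -0.49). NRF1, which binds the NRF1 core, averaged 13.9 ± 2.20 CPM, counts scaled by library size, in KHM-5M GDC-0994 and 27.3 ± 2.60 CPM in KHM-5M DMSO (SD, n = 3 each; -0.98 ± 0.13 log2). PPRC1, a coactivator of the PGC-1 family, averaged 43.7 ± 2.26 CPM in KHM-5M GDC-0994 and 79.4 ± 5.57 CPM in KHM-5M DMSO (-0.86 ± 0.08). GABPA, the DNA-binding subunit of GABP, rose (0.66 ± 0.16), and PPARGC1A, which encodes PGC-1α, rose at a low level (1.37 ± 0.733 CPM in KHM-5M GDC-0994 and 0.360 ± 0.267 CPM in KHM-5M DMSO). YY1, whose motif was in a promoter of 21 of 69 members, was not called (-0.05 ± 0.07). Of 7 genes of mitochondrial transcription and mRNA stability 3 fell and 1 rose (median -0.19), with falls of POLRMT, the mitochondrial RNA polymerase (-0.80 ± 0.09), and SLIRP, which stabilises mitochondrial mRNA (-0.55 ± 0.11).

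The mRNAs that the mitoribosome translates went mostly the other way. Of the 13 mitochondrially encoded protein genes 8 rose and 1 fell in KHM-5M (median 0.33), with rises of MT-ND4L (0.50 ± 0.09) and MT-CO1 (0.43 ± 0.08) and a fall of MT-ATP8 (-0.93 ± 0.15). Of the mitochondrial rRNAs, MT-RNR2 of the large subunit rose (0.62 ± 0.08) and MT-RNR1 of the small subunit was not called (0.13 ± 0.17). Counts of these RNAs depend on the capture of their short tails by the poly-T selection. Of 79 cytosolic ribosomal protein genes, which build the other ribosome of the cell, 11 fell (median -0.05).

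In TTA-1, where 1.18% of all genes rose and 2.24% fell, these lists held few calls, as did all genes. MYC (-0.53 ± 0.09) and ESRRA (-0.44 ± 0.12) fell among the regulators, POLRMT fell (-0.33 ± 0.09), PDF, the deformylase of mitochondrial translation, fell (-0.53 ± 0.13) and MT-ATP8 rose (0.91 ± 0.14). Of the cytosolic ribosomal protein genes 3 fell and 1 rose. In the 22 assembly factors edgeR made 0 calls, with 1 gene up and 3 down at an unadjusted p under 0.05 and 0 calls by the DESeq2 Wald test and by limma. In the 20 aminoacyl-tRNA genes edgeR made 0 calls, with 1 gene down at an unadjusted p under 0.05, 1 fall by the DESeq2 Wald test and 0 calls by limma.

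The lines themselves were compared in DMSO and again under GDC-0994. These comparisons share their libraries with the treatment comparisons, so their values stand side by side only. In DMSO, 40 of the 78 members were lower in KHM-5M than in TTA-1 (51.3%), where 36.8% of all genes were lower, and 20 were higher (25.6%), where 39.6% of all genes were higher. The median was -0.27, against 0.03 over all genes. Under GDC-0994, 51 were lower, where 39.1% of all genes were lower, and 15 were higher, where 41% were higher, with a median of -0.50 against 0.04 over all genes. Scaling by upper quartile or library totals moved the median of all genes between the lines to 0.13 in DMSO and to 0.20 and 0.17 under GDC-0994, and the median of the members was then -0.18 and -0.17 in DMSO and -0.34 and -0.36 under GDC-0994.

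Apart from MRPS24, the largest differences between the lines exceeded those between GDC-0994 and DMSO in size. MRPS17, homologue of bacterial S17 (chromosome 7, 55951819 to 55956501), had 2.54, 3.14 and 2.76 FPKM in KHM-5M DMSO, against 8.60, 8.58 and 7.67 FPKM in TTA-1 DMSO (-1.58 ± 0.13; edgeR, adjusted p = 8.99e-09). MRPL47, homologue of bacterial L29 (chromosome 3, 179588285 to 179604654), had 22.9, 21.4 and 21.7 FPKM in KHM-5M DMSO, against 59.6, 62.0 and 58.5 FPKM in TTA-1 DMSO (-1.47 ± 0.08). The lines were far apart for both, and MRPL32 (-1.44 ± 0.08), MRPS22 (-1.39 ± 0.09) and MRPL19 (-1.25 ± 0.11) followed.

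In the other direction, MRPL23, homologue of bacterial L23 at the exit tunnel, had 12.5, 12.1 and 13.2 FPKM in KHM-5M DMSO, against 6.54, 2.59 and 5.14 FPKM in TTA-1 DMSO (1.38 ± 0.21). MRPS21, homologue of bacterial S21, had 35.5, 31.5 and 32.7 FPKM in KHM-5M DMSO, against 15.02, 11.6 and 11.9 FPKM in TTA-1 DMSO (1.35 ± 0.10). No TTA-1 library reached KHM-5M for either gene, and MRPS6 (1.22 ± 0.13), MRPL57 (1.21 ± 0.10) and MRPL28 (1.12 ± 0.18) were higher as well.

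Under GDC-0994 the lower members were led by MRPL47 (-2.17 ± 0.08), MRPS17 (-2.11 ± 0.14), MRPS22 (-1.62 ± 0.09), MRPL32 (-1.55 ± 0.08) and MRPS25 (-1.43 ± 0.08). MRPL47 had 17.3, 15.7 and 14.7 FPKM in KHM-5M GDC-0994, against 66.6, 71.3 and 69.7 FPKM in TTA-1 GDC-0994. The higher ones were led by MRPL23 (1.94 ± 0.23), MRPS21 (1.47 ± 0.11), MRPL28 (1.35 ± 0.18), MRPS24 (1.1995 ± 0.35) and MRPS6 (0.93 ± 0.13).

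Members that were higher or lower in KHM-5M were compared with the genes around them on the chromosome. For each member, the median log2 fold change of the other genes tested within 5 Mb was taken, over 16 to 225 neighbours. In DMSO, the members' values and the medians of their neighbours had a Pearson correlation of 0.71 and a Spearman correlation of 0.71 across the 78 members, a description over genes of the same libraries. Of the 60 members called, 43 had the sign of their neighbours. Under GDC-0994 the Pearson correlation was 0.54 and the Spearman correlation 0.56, and 39 of the 66 members called had the sign of their neighbours. The like share over all genes was not computed. Around MRPS17 the 18 neighbours had a median of -1.34, around MRPL47 the 46 neighbours had -0.99, around MRPL57 the 46 neighbours had 1.36 and around MRPL23 the 101 neighbours had 1.01. MRPL19 (-1.25 ± 0.11) and MRPS6 (1.22 ± 0.13) stood in neighbourhoods with smaller medians, of -0.20 and 0.18. The same measure for the GDC-0994 effect in KHM-5M gave a Pearson correlation of 0.16. Copy number was not analysed here.

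**Figure D5:**
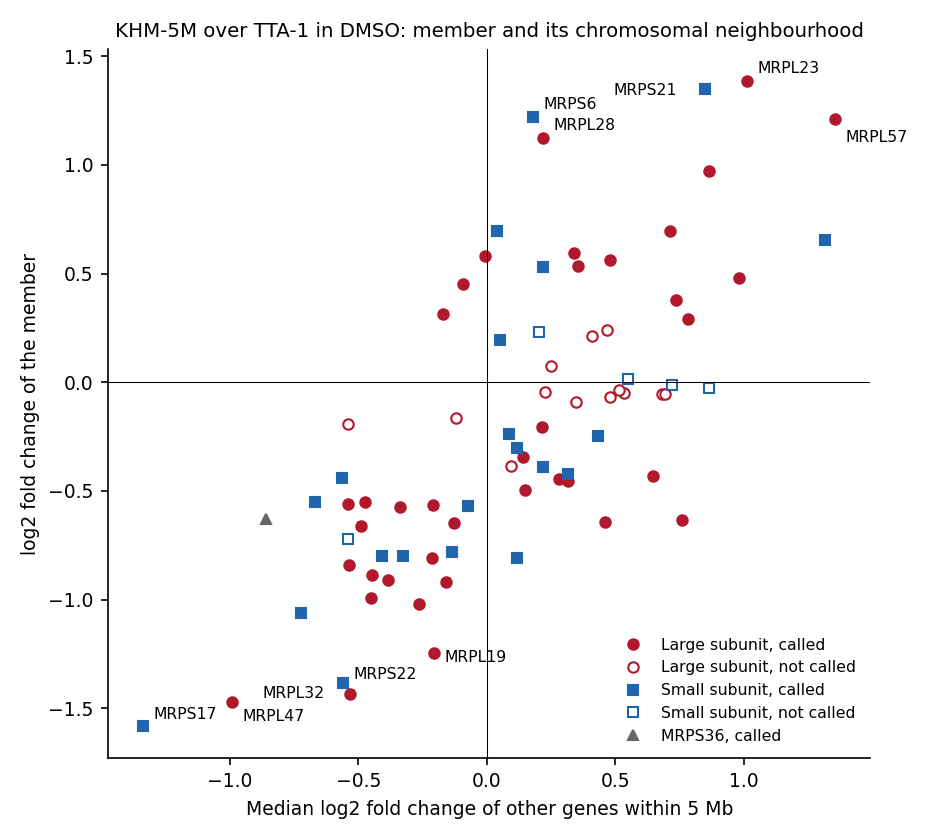
Log2 fold change of KHM-5M over TTA-1 in DMSO for each member (vertical axis) against the median of the other tested genes within 5 Mb (horizontal axis), with the 10 members of largest difference named. Of the 78 members 51 share the sign of their neighbours, from MRPS17 at the lower left to MRPL57 at the upper right (Pearson correlation 0.71).

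The motifs of the promoters were set beside the falls as a description. Falls among all coding genes with each motif were not counted, so the shares below cannot be called particular to these genes. In KHM-5M, 14 of the 30 members with CCGGAAG fell (median -0.21), against 24 of the 39 without it (median -0.33). Of the 21 members with AAGATGGC 10 fell (median -0.21), against 28 of the 48 without it (median -0.35), and of the 16 with that motif just after the start 7 fell. Of the 9 members with CACGTG 5 fell (median -0.32), against 33 of the 60 without it (median -0.32). Of the 3 members with the NRF1 core, MRPL17 among them, 2 fell (median -0.54), against 36 of the 66 without it (median -0.32).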

How the data were processed

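RNA-seq of 12 libraries was analysed from the deposited gene tables. Per the submitters' processing notes, CASAVA, HISAT2 2.0.5, featureCounts 1.5.0-p3 and GRCh38 were used, with no order given. The authors' counts are whole-number reads per gene, and the FPKM they deposited scale these by gene length and a library size. That size was not the total count. It averaged 1.05 times the total in KHM-5M GDC-0994 and 1.04 times in KHM-5M DMSO. In TTA-1 it averaged 0.993 times with GDC-0994 and 0.985 times with DMSO. All 58735 gene IDs had the start, end and exon length of GENCODE 29, which gave GC content and overlaps. Counts were fitted with edgeR 4.0.16 (R 4.3.3): TMM scaling, filterByExpr with a minimum count of 10 and total of 15, 1 quasi-likelihood model of 4 group means with 8 residual degrees of freedom, Benjamini-Hochberg adjustment over 16218 genes and a threshold of 0.05. CPM were computed from the counts with the TMM library sizes. The SE is the log2 fold change divided by the root of F. The fit was tested on simulated data. DESeq2 1.42.0 and limma 3.58.1 on log2(FPKM + 1) and log2(FPKM + 0.1) were alternatives, besides scaling, filters, a length and GC correction, a replicate block and leaving out libraries. Counting limits precision: 148 reads in all for MRPS24.

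The members and lists were chosen with earlier results of these data known. Named members are up to 6 risen and 6 fallen per treatment comparison, up to 4 each way for the difference and 5 each way between lines by log2 fold change, the 5 highest and 5 lowest by mean FPKM, and MRPS30, MRPS18A and MRPS36. Other lists give up to 2 genes each way by smallest p. YY1, MT-RNR1, MRPS7, MRPS35 and MRPL58 were named beyond this, after their values were seen. In KHM-5M GDC-0994 the labels tie columns to the group and not to single samples, and its replicate numbers are those of the column names. Some items of these lists are not reported here.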

Additional observations from a re-analysis of the deposited data

Results flagged for a closer look

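Members whose GDC-0994 effect differed between the lines were picked out by the edgeR test of the difference itself, KHM-5M minus TTA-1, with adjusted p below 0.05. The difference was -0.92 for MRPL39, -0.86 for MRPL17, -0.86 for MRPL18 and -0.82 for MRPL46 on the log2 scale. It was 1.92 for MRPS24, on 148 reads in all.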

How the results depend on the processing

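In KHM-5M, 44 members fell in the reported fit, 28 without both KHM-5M GDC-0994 replicates 1 and 3 (chosen after seeing the data), 35 to 47 under the other settings and 32 to 45 with each library left out in turn. The number that rose, 2, was 1 with limma on filtered FPKM (pseudocounts 1 and 0.1) and 4 with the length and GC trend removed. It was 3 with upper quartile scaling, library totals or the DESeq2 Wald test, and 3 without KHM-5M GDC-0994 replicate 3. In TTA-1 the 1 rise became 0 with only the groups compared, 0 with the replicate block and 0 with limma on unfiltered log2(FPKM + 1), 3 with the trend removed, and 0 to 3 leaving out libraries. The 0 falls became 2 with the DESeq2 Wald test, 4 with no filter, 2 without both TTA-1 DMSO replicates 1 and 2 (chosen after seeing the data) and 0 to 13 leaving out libraries. For the difference, 29 negative calls became 16 without both KHM-5M GDC-0994 replicates and 19 to 31 leaving out single libraries. The 1 positive call became 2 with no filter, 0 with the stricter filter, 0 with the replicate block, 0 with limma on filtered FPKM, 3 with the trend removed, 2 without both TTA-1 DMSO replicates, 0 without both KHM-5M GDC-0994 replicates and 0 to 4 leaving out libraries. Between the lines under GDC-0994, the 15 higher members became 9 with the replicate block. Counts over all genes moved with the settings too. In TTA-1, 1726 of 16678 genes fell without TTA-1 DMSO replicate 2, against 364 of 16218 in the reported fit.

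Same-numbered libraries did not deviate together (correlations from -0.073 to 0.152), so the numbers are not taken to pair them. In KHM-5M GDC-0994 the numbers are those of the table columns, since all 3 samples carry 1 description, and no column can be tied to a sample. With the replicate block 44 members fell in KHM-5M. Removing the length and GC trend reversed MRPL39 (0.073), MRPL46 (0.043) and MRPS34 (-0.0078) between lines in DMSO, and MRPL38 (-0.71), MRPS34 (-0.32) and MRPS36 (0.22) under GDC-0994; the cause was not tested.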
